A study of Mus musculus with 12 samples.

Results

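Hox genes and limb identity factors were examined as a set of 46 genes in joint tissue of mouse paws. The set held the 39 protein-coding Hox genes (11 Hoxa, 10 Hoxb, 9 Hoxc and 9 Hoxd genes), the long non-coding RNAs Hottip and Hotair, the T-box genes Tbx2, Tbx3, Tbx4 and Tbx5, and the homeobox gene Pitx1. These 46 members were taken by symbol from a count table of 52636 gene identifiers.

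RNA of 12 mice was sequenced, 1 library per animal, in 3 groups of 4. The first group, called naive, had no arthritis and was given anti-gp120, an antibody against a viral envelope protein that served as the negative control. The second group, called control 1 to 4, had K/BxN serum-induced arthritis and received the same anti-gp120. Serum of K/BxN mice carries autoantibodies that inflame the joints of the recipient. The third group had the same arthritis and received 6F2, an agonistic antibody to SIRPa, an inhibitory receptor of myeloid cells. Arthritic joints were taken at day 7 after serum transfer. The sources used here do not give strain, age, sex, antibody dose or whether fore or hind paws were taken. The mouse numbers are used here only to name animals.

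Hox proteins are homeodomain transcription factors that give cells of the body axis and the limb their positional identity. Within a cluster the genes stand in the order of their use, so that paralog groups with low numbers act towards the head and near the trunk, and those with high numbers act towards the tail and the tip of the limb. Fibroblasts and other connective tissue cells keep much of this pattern after development. Hottip is transcribed from the distal end of the Hoxa cluster beside Hoxa13 and is known to support transcription of distal Hoxa genes, and Hotair comes from the Hoxc cluster. Pitx1 and Tbx4 mark the hindlimb and Tbx5 the forelimb, whereas Tbx2 and Tbx3 are T-box repressors expressed in both.

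Libraries held 6893969 to 17597920 counts, with control 2 lowest, so that 3 counts, taken as the floor of detection, amounted to between 0.17 and 0.435 CPM. CPM are counts-per-million, and levels below are CPM scaled by the trimmed mean of M values (TMM). Markers of joint lining and cartilage summed to 6207 to 11212 CPM over the 12 libraries, and 7 of the 8 were tested, Matn3 having 15 counts in all. Muscle was also plentiful, at 20.2% of counts in naive and 15.8% in control libraries. Libraries within a group were uneven: summed smell and taste receptor genes, which joint tissue should lack, reached 518 CPM in control 2 and 222 CPM in control 4 against 10.1 to 29.1 CPM in the other 10. Epidermal markers were at 6.82 CPM in naive 4 and 6.18 CPM in anti-SIRPa 2, against 223 to 14092 CPM elsewhere. Values without these libraries are given beside the results they change.

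Promoter windows are printed here for the members called in control-antibody arthritis against naive mice, Hottip and Hoxd13 (lower) and Hoxd8 (higher). The window of Hoxa13, the neighbour of Hottip, is shown beside them, although Hoxa13 did not pass the threshold. All are RefSeq sequences of build GRCm38.p6, 5′ to 3′ on the strand of the gene, from 250 bases before to 50 after the RefSeq start. Capitals mark matches, on either strand, to the CCAAT box, to the TATA box motif TATAAA and to CCAATAAA, which itself contains the CCAAT letters.
Hottip, chr6:52262525-52262824, plus strand: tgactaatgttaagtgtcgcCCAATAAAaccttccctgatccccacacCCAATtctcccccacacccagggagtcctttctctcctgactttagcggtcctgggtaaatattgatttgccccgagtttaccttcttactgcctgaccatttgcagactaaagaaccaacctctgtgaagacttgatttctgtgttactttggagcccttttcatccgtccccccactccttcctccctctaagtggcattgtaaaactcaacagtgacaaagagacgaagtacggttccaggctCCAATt
Hoxa13, chr6:52260831-52261130, minus strand: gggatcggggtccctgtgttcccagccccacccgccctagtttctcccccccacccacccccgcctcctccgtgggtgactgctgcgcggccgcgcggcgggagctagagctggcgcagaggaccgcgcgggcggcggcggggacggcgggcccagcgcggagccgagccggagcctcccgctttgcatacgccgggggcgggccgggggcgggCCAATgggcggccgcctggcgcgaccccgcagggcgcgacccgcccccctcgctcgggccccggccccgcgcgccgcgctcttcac
Hoxd13, chr2:74667975-74668274, plus strand: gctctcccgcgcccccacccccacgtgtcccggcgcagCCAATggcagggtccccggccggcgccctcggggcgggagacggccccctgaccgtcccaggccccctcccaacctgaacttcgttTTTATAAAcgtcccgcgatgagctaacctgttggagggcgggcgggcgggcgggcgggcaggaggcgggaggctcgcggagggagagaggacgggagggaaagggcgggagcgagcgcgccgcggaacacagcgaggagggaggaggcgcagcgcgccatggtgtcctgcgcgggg
Hoxd8, chr2:74704365-74704664, plus strand: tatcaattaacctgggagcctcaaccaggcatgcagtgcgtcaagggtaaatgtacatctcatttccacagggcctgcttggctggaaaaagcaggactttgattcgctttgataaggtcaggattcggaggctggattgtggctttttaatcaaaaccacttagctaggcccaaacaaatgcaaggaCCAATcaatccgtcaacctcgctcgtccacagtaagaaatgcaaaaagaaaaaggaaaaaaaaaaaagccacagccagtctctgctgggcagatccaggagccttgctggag
The Hottip window had a GC content of 47.7% and 6 CpG dinucleotides, whereas the Hoxa13 window, whose start lies 1895 bp away on the opposite strand, had 81% and 45. Hoxd13 was similarly rich in GC, at 74.3% with 37 CpG dinucleotides, and Hoxd8 was at 46.7% with 6. CCAAT was found in all 4 windows, 230 and 202 bases before the start and 45 bases after it in Hottip, 36 before in Hoxa13, 212 before in Hoxd13 and 62 before in Hoxd8. The Hottip match at 230 bases was also a CCAATAAA, and TATAAA was found only in the Hoxd13 window, on both strands (124 and 126 bases before the start). Over all 32544 windows of the same length, 37.4% held CCAAT, 13.6% held TATAAA and 1.1% held CCAATAAA. RefSeq windows were at hand for 24 of the 46 members (26 windows), of which 16 held CCAAT, 5 TATAAA and 2 CCAATAAA. None was at hand for Tbx2, the member called in anti-SIRPa against control antibody. The CpG count was above the median of all windows (7) in 21 of the 26.

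Distal Hox genes carried most of the Hox RNA. Levels were compared between genes as CPM per kilobase of exon. Over all 12 libraries, 15 of the 39 Hox genes reached a mean of 1 CPM per kilobase: 2 of 12 genes of paralog groups 1 to 4, 2 of 11 of groups 5 to 8, and 11 of 16 of groups 9 to 13. Paralog groups 9 to 13 held 82.8% ± 0.858 of the summed Hox level per kilobase in naive mice, 76.0% ± 8.19 in control and 82.5% ± 1.34 in anti-SIRPa mice (SD, n = 4). Control 2 was lowest, at 64.4%. Control 3 and 4, at 78.9% and 77.3%, also lay below every naive and anti-SIRPa library (80.8% to 84.1%), and control 1, at 83.5%, lay among them. The summed level itself was 90.1 ± 10.01, 83.2 ± 14.7 and 87.1 ± 1.89 CPM per kilobase in the 3 groups. In bulk tissue, fewer cells of a type and less RNA per cell cannot be told apart.

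**Figure D1:**
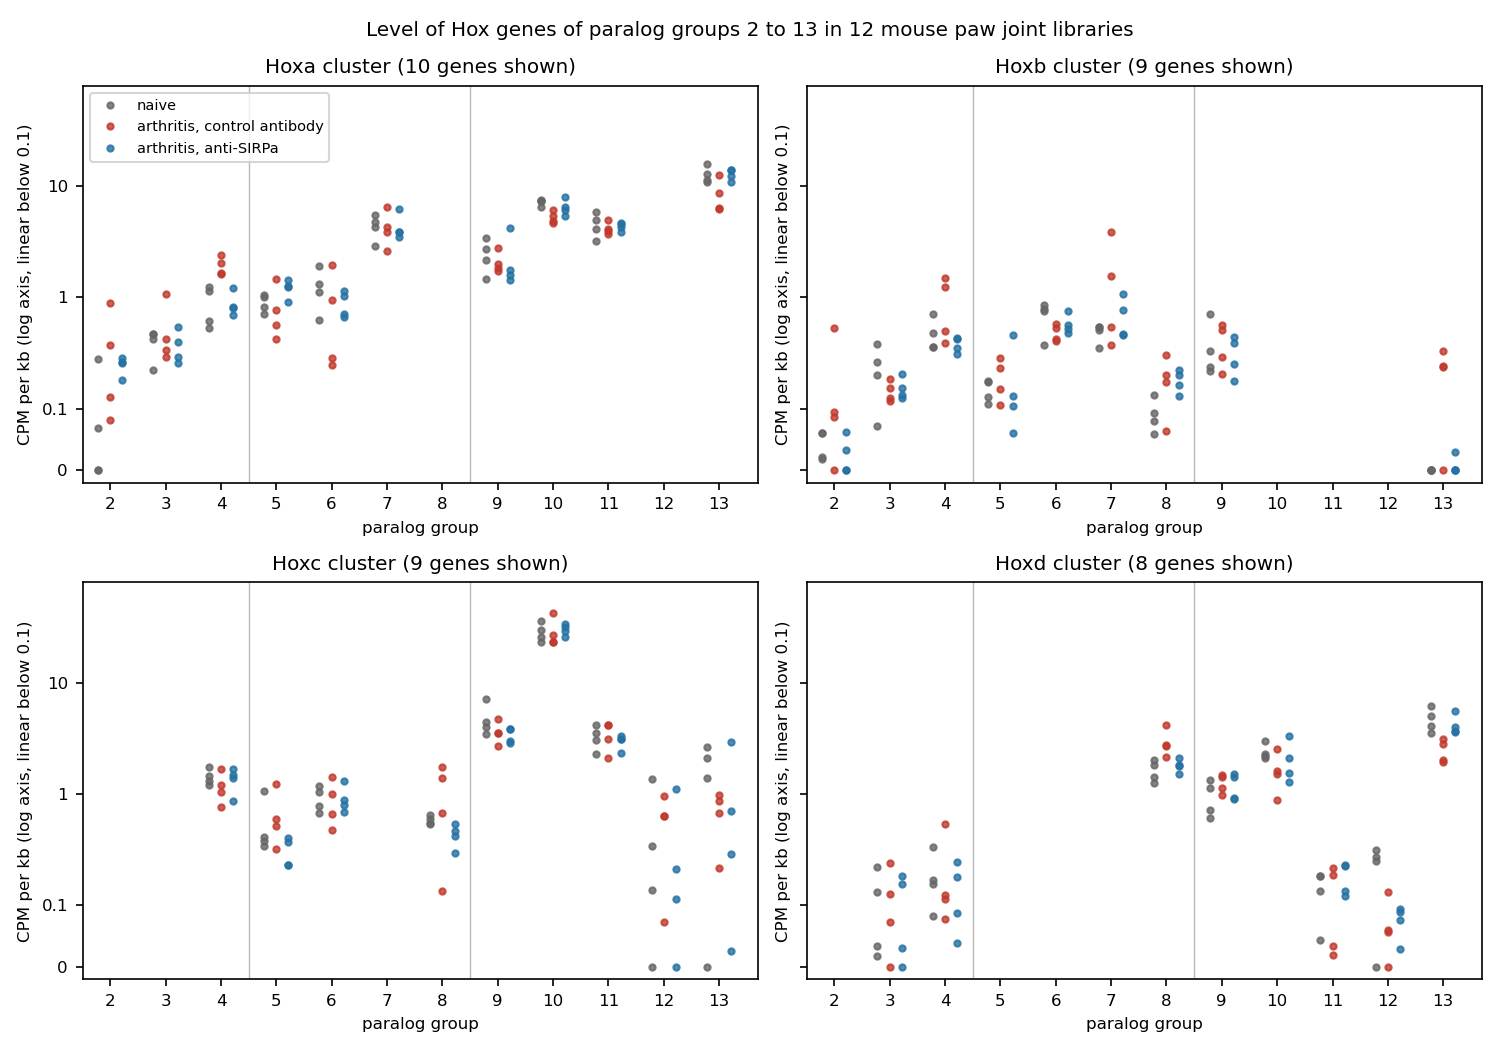
Level of each Hox gene of paralog groups 2 to 13 in each library, in CPM per kilobase on an axis that is logarithmic above 0.1, against paralog group, with 1 panel per cluster and 1 colour per group of mice (4 points each). Hoxc10 and Hoxa13 lie highest, no Hoxb gene has a mean of 1 CPM per kilobase over the 12 libraries, and paralog groups 9 to 13 hold 11 of the 15 Hox genes that do.

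The Hoxc and Hoxa clusters were the strongest. In naive mice the Hoxc cluster held 46.8% of the summed Hox level per kilobase, Hoxa 39.0%, Hoxd 11.4% and Hoxb 2.85%. Hoxc10, which patterns lumbar motor neurons and the hindlimb, alone had a mean of 29.3 CPM per kilobase over the 12 libraries, above the 11.4 of Hoxa13, which patterns the digits. Hoxa10 (6.32), Tbx3 (5.80), Hoxa11 (4.37), Hoxa7 (4.36), Hoxc9 (3.93), Hoxd13 (3.81), Pitx1 (3.63), Hoxc11 (3.20), Tbx2 (3.16) and Tbx4 (3.14) followed. Among these, Hoxa11 and Hoxa7 differed by far less than their spread (naive SD 1.14 and 1.11 CPM per kilobase), as did Tbx2 and Tbx4. With the longest transcript as the gene length, 23 instead of 19 of all 46 members reached 1 CPM per kilobase.

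Paralog groups 1 to 4 were low, holding 4.26% ± 0.460, 7.19% ± 2.22 and 4.24% ± 0.324 of the summed Hox level per kilobase in naive, control and anti-SIRPa mice, with 10.1% in control 2. Hoxc4 (1.32 CPM per kilobase) and Hoxa4 (1.23) were the 2 that reached 1 CPM per kilobase. Of the 12 genes 7 had too few counts to be tested, and Hoxd1 had no count in any library, which allows at most 0.435 CPM in the shallowest. Hoxb1 had 2 counts in all. In total 11 members, all Hox genes, were not tested, with 0 to 81 counts each over the 12 libraries, among them Hoxb13, Hoxd3, Hoxd4 and Hoxd12. Exons of Hoxd3 and Hoxd4 overlap each other or the same-strand gene model Gm28230 over 62.3% and 52.3% of their length. Their few counts therefore cannot be assigned to either with certainty.

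Hoxb genes stood higher in single control libraries. Hoxb genes held 9.19% of the summed Hox level per kilobase in control 2 and 5.97% in control 4, against 1.87% in control 1, 3.95% in control 3 and 2.203% to 3.42% in the 8 other libraries. Control 2 and 4 are also the libraries with 518 and 222 CPM of receptor genes. Hoxb7, the Hoxb gene with the highest mean per kilobase, was at 0.58, 6.04, 0.83 and 2.38 CPM in control 1 to 4, against 0.54 to 0.84 CPM in naive and 0.71 to 1.65 CPM in anti-SIRPa mice. Only control 2 and 4 lay above every other library. Its fold change, 1.65 ± 0.635 (log2, SE; edgeR adjusted p = 0.107), turned to -0.12 without control 2 and 4. Hoxb13, a posterior Hoxb gene of prostate and hindgut, was at 0 counts in naive mice and in 3 of the 4 anti-SIRPa mice, and at 0, 4, 7 and 10 counts in control 1 to 4.

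**Figure D2:**
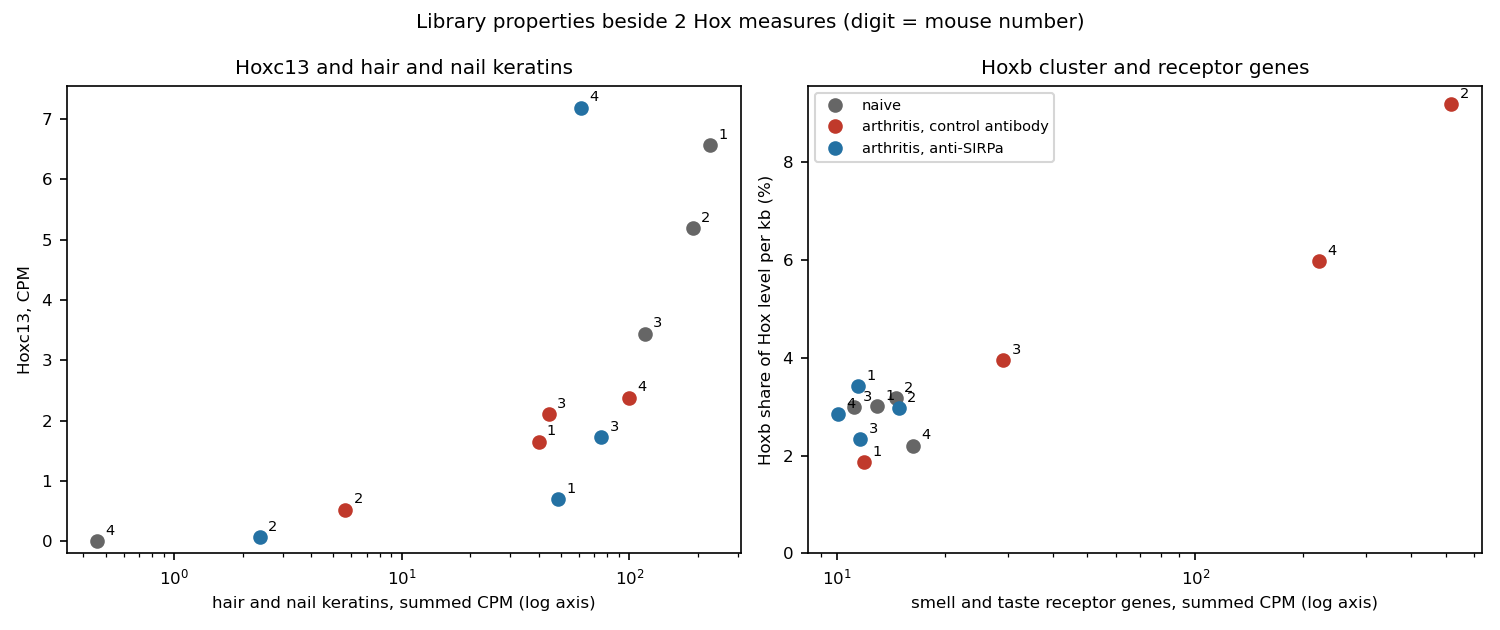
Left, Hoxc13 (CPM) against the summed CPM of hair and nail keratins on a log axis, and right, the Hoxb share of the summed Hox level per kilobase (%) against the summed CPM of smell and taste receptor genes on a log axis, with 1 point per library numbered by mouse. Control 2 and 4 lie apart on the right at 9.19% and 5.97%, and the libraries with the fewest hair and nail keratins have the lowest Hoxc13.

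Both hindlimb factors stood above the forelimb factor in every library. Pitx1, which specifies the hindlimb, was at 3.31 ± 0.967, 4.72 ± 1.90 and 2.85 ± 0.821 CPM per kilobase in naive, control and anti-SIRPa mice, and Tbx4, which drives hindlimb outgrowth, at 3.10 ± 0.429, 3.04 ± 0.674 and 3.28 ± 0.0991. Tbx5, the forelimb counterpart of Tbx4, was at 0.618 ± 0.232, 0.466 ± 0.147 and 0.573 ± 0.0933 CPM per kilobase. The ratio of Tbx5 to Tbx4 per kilobase was 0.0808 to 0.313, with a median of 0.172, and that of Tbx5 to Pitx1 was 0.0623 to 0.287. No library reached a ratio of 1.

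**Figure D3:**
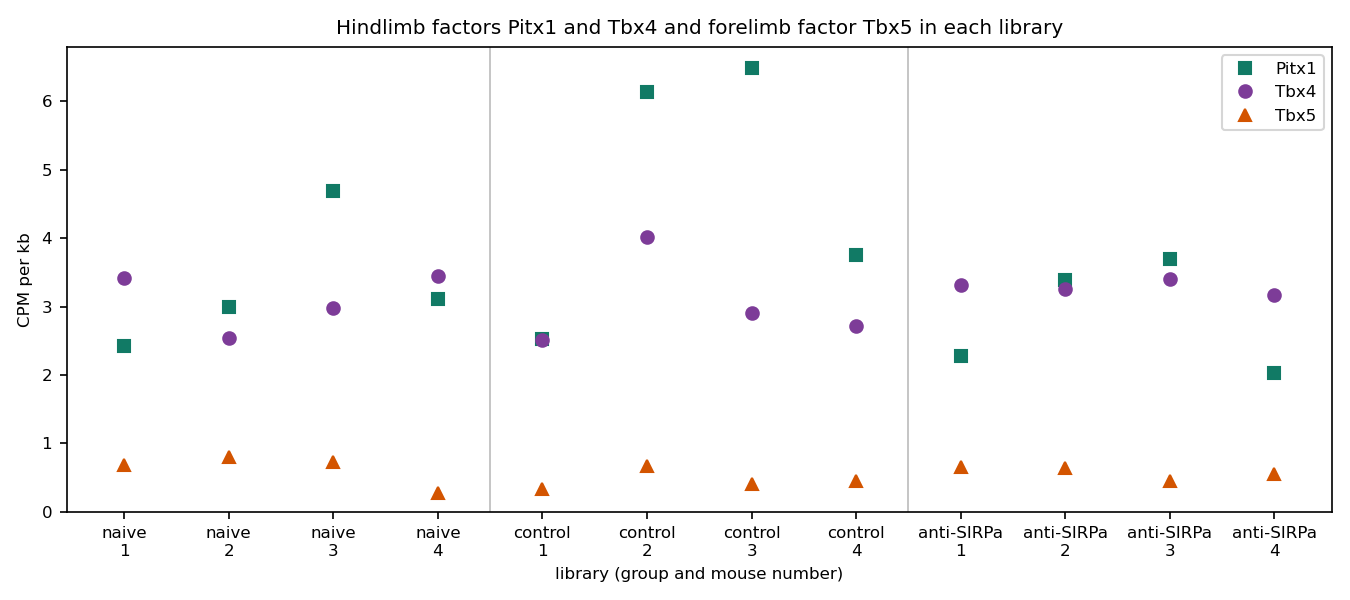
Pitx1 (squares), Tbx4 (circles) and Tbx5 (triangles) in each of the 12 libraries, in CPM per kilobase. Tbx5 is the lowest of the 3 in every library, with a ratio to Tbx4 between 0.0808 and 0.313, and Pitx1 is highest in control 2 and 3.

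None of Pitx1, Tbx3, Tbx4 and Tbx5 passed the test in any comparison. In naive 1 to 4, Pitx1 was at 6.45, 7.94, 12.4 and 8.28 CPM, in control 1 to 4 at 6.70, 16.3, 17.2 and 9.96 CPM, and in anti-SIRPa 1 to 4 at 6.05, 9.02, 9.82 and 5.38 CPM. Control 2 and 3 were above all other libraries, and control 1 lay among the naive ones. The Pitx1 difference was 0.51 ± 0.309 for control against naive (edgeR adjusted p = 0.295) and -0.73 ± 0.310 for anti-SIRPa against control (edgeR adjusted p = 0.171). Without control 1 the second became -0.93 with an edgeR adjusted p of 0.0245. Over all 23 alternatives (edgeR, DESeq2 or limma-voom) the adjusted p of the second reached 0.495. For Tbx4 the 95% interval of the first difference was -0.40 to 0.33 and that of the second -0.25 to 0.48. Tbx5 differed by -0.43 ± 0.341 and 0.31 ± 0.341 (edgeR adjusted p = 0.440 and 0.609), and Tbx3 by -0.08 ± 0.198 and -0.06 ± 0.198 (edgeR adjusted p = 0.832 and 0.872).

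The first comparison set arthritis under the control antibody against naive joints. Of 35 members tested, 1 was higher, Hoxd8, and 2 were lower, Hottip and Hoxd13 (edgeR, Benjamini-Hochberg adjusted p under 0.05 over 16674 genes). Among all genes tested 5.87% were higher and 4.45% lower, so the 3 members (8.57% of those tested) were near the background of 10.3%. At an unadjusted p under 0.05 there were 7 of the 35, against 28.2% of all genes. The median difference was -0.12 on the log2 scale over the members and 0.03 over all genes. The groups did not overlap for 2 members that were higher (Hoxa4 and Hoxd8) and 3 that were lower (Hottip, Hoxa10 and Hoxd13), against 6.02% and 6.47% of all genes.

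Of the 3 called members Hottip had the largest difference. It was at 2.86, 3.16, 3.44 and 5.06 CPM in naive 1 to 4 and at 1.32, 0.66, 0.15 and 0.87 CPM in control 1 to 4, from 45 to 66 and from 2 to 16 counts. Every control library lay below every naive one. Hottip fell by 2.26 ± 0.485 on the log2 scale (95% interval -3.30 to -1.22, edgeR adjusted p = 0.0160), from 3.63 ± 0.981 to 0.749 ± 0.486 CPM (SD, n = 4). Without naive 4 the difference was -2.07 and the edgeR adjusted p 0.0507, without naive 4 and anti-SIRPa 2 it was 0.0758, and without control 2 and 4 it was 0.149 at a difference of -2.32. The gene lies at chr6:52262775-52267603 on the plus strand (GRCm38), and 25.3% of its exon length is shared with the same-strand gene models Gm27383, Gm27866 and Gm27985.

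Hoxd13, the last gene of the Hoxd cluster, which patterns the digits together with Hoxa13, was lower as well. Its level was 10.2, 12.4, 8.72 and 15.4 CPM in naive 1 to 4 and 6.95, 4.86, 5.06 and 7.73 CPM in control 1 to 4. No control library reached the lowest naive one. Hoxd13 fell by 0.92 ± 0.229 (95% interval -1.41 to -0.43, edgeR adjusted p = 0.0262), from 11.7 ± 2.91 to 6.15 ± 1.41 CPM. The call was lost without naive 2, naive 4, control 2 or control 3 (edgeR adjusted p = 0.0637, 0.0818, 0.0730 and 0.0847), in a fit of these 8 libraries alone (0.0647), with limma-voom (0.0502), without naive 4 and anti-SIRPa 2 (0.108) and without control 2 and 4 (0.152), while the difference stayed between -0.77 and -1.05.

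The estimates of the 4 distal Hoxa genes all lay in the same direction, without passing the threshold. Hoxa9 was at 8.20 to 19.0 CPM in naive and 9.59 to 15.5 CPM in control mice. Hoxa11 was at 7.37 to 13.4 and 8.46 to 11.3 CPM, so both overlapped between these groups, and neither passed. Hoxa13 was at 27.3, 32.2, 28.0 and 39.6 CPM in naive 1 to 4 and at 31.5, 15.4, 15.6 and 21.4 CPM in control 1 to 4. Control 1 was among the naive mice and the other three were below all of them. The difference was -0.60 ± 0.211 (edgeR adjusted p = 0.0836), -0.62 with DESeq2 (adjusted p = 0.0432), and -0.87 without control 1 (edgeR adjusted p = 0.00158). Leaving out control 1, the control library among the naive mice, widens the difference by itself. Over all 23 alternatives (edgeR, DESeq2 or limma-voom) the Hoxa13 difference shrank to as little as -0.45 and its adjusted p reached 0.420. Hoxa10, named after its values were seen, was at 21.2 to 24.6 CPM in naive and 15.4 to 19.9 CPM in control mice, without overlap (-0.45 ± 0.139, edgeR adjusted p = 0.0549). It passed with RLE factors (0.0475), with DESeq2 (0.0192) and without control 1, anti-SIRPa 3 or anti-SIRPa 4 (0.0132, 0.0478 and 0.0423). The largest adjusted p of Hoxa10 over the same alternatives was 0.271. The ratio of Hottip to Hoxa13 per kilobase was 0.0974 ± 0.0122 in naive and 0.0290 ± 0.0138 in control mice, and no control library reached the lowest naive one (0.0842). In anti-SIRPa mice this ratio was 0.0710 ± 0.0187 (0.0451 to 0.0894), above the highest control library (0.0367). Only anti-SIRPa 3 reached the lowest naive library.

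Paralog group 13 as a whole held 21.2% ± 1.94 of the summed Hox level per kilobase in naive mice (18.5% to 22.9%) and 14.2% ± 2.97 in control mice (10.002% to 16.6%). These ranges did not overlap. Those of Hoxa genes of paralog groups 1 to 4 did not either (1.12% to 1.98% in naive and 2.44% to 5.92% in control). Nor did those of paralog groups 9 to 13 of Hoxa (28.8% to 31.9% and 20.6% to 25.4%) and of Hoxd (7.64% to 10.04% and 5.58% to 7.23%). Paralog group 1, with few counts, did not overlap either. These shares were picked from many, most of which overlapped, and they were not tested. A share also depends on the other Hox genes, such as Hoxc10, which was highest in control 1 (81.3 CPM). The summed level of paralog group 13 was 19.1 ± 2.63 CPM per kilobase in naive and 11.8 ± 3.49 in control mice. Hoxa13, its largest part, overlapped between these groups, and control 1 lay almost level with naive 3 in the sum. Hoxc13, which regulates hair and nail keratins, overlapped between all 3 groups. Its level was 6.57, 5.20, 3.44 and 0 CPM in naive 1 to 4, 1.65, 0.53, 2.12 and 2.38 CPM in control 1 to 4, and 0.71, 0.06, 1.73 and 7.19 CPM in anti-SIRPa 1 to 4. The 2 libraries poor in epidermal markers, naive 4 and anti-SIRPa 2, had 0 and 1 counts of it, and their summed hair and nail keratins were 0.46 and 2.38 CPM against 5.65 to 227 CPM elsewhere. The difference for Hoxc13 was -1.16 ± 1.18 (edgeR adjusted p = 0.557), and its 95% interval ran from -3.76 to 1.44.

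Hoxd8, a mid-cluster gene, was higher in arthritis. It was at 3.41, 4.99, 5.55 and 3.91 CPM in naive 1 to 4 and at 5.87, 11.4, 7.48 and 7.58 CPM in control 1 to 4. The lowest control library stood just above the highest naive one. Hoxd8 rose by 0.85 ± 0.238 (95% interval 0.34 to 1.36, edgeR adjusted p = 0.03998), from 4.46 ± 0.980 to 8.09 ± 2.36 CPM. The call was lost without any 1 library other than naive 3 and control 1 (edgeR adjusted p = 0.0507 to 0.112, difference 0.64 to 0.88), with no filter on low counts (0.0816), with limma-voom (0.0518), in a fit of the 2 groups alone (0.0910), with the replicate number as a block (0.0658), without naive 4 and anti-SIRPa 2 (0.135) and without control 2 and 4 (0.305, at a difference of 0.56). Hoxa4, also named after its values were seen, was at 0.84 to 1.97 CPM in naive and 2.56 to 3.81 CPM in control mice (1.12 ± 0.348, edgeR adjusted p = 0.0551), and passed with DESeq2 (0.02345), with limma-voom (0.0456) and without control 1 (0.0317). Its largest adjusted p over all 23 alternatives (edgeR, DESeq2 or limma-voom) was 0.267.

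**Figure D4:**
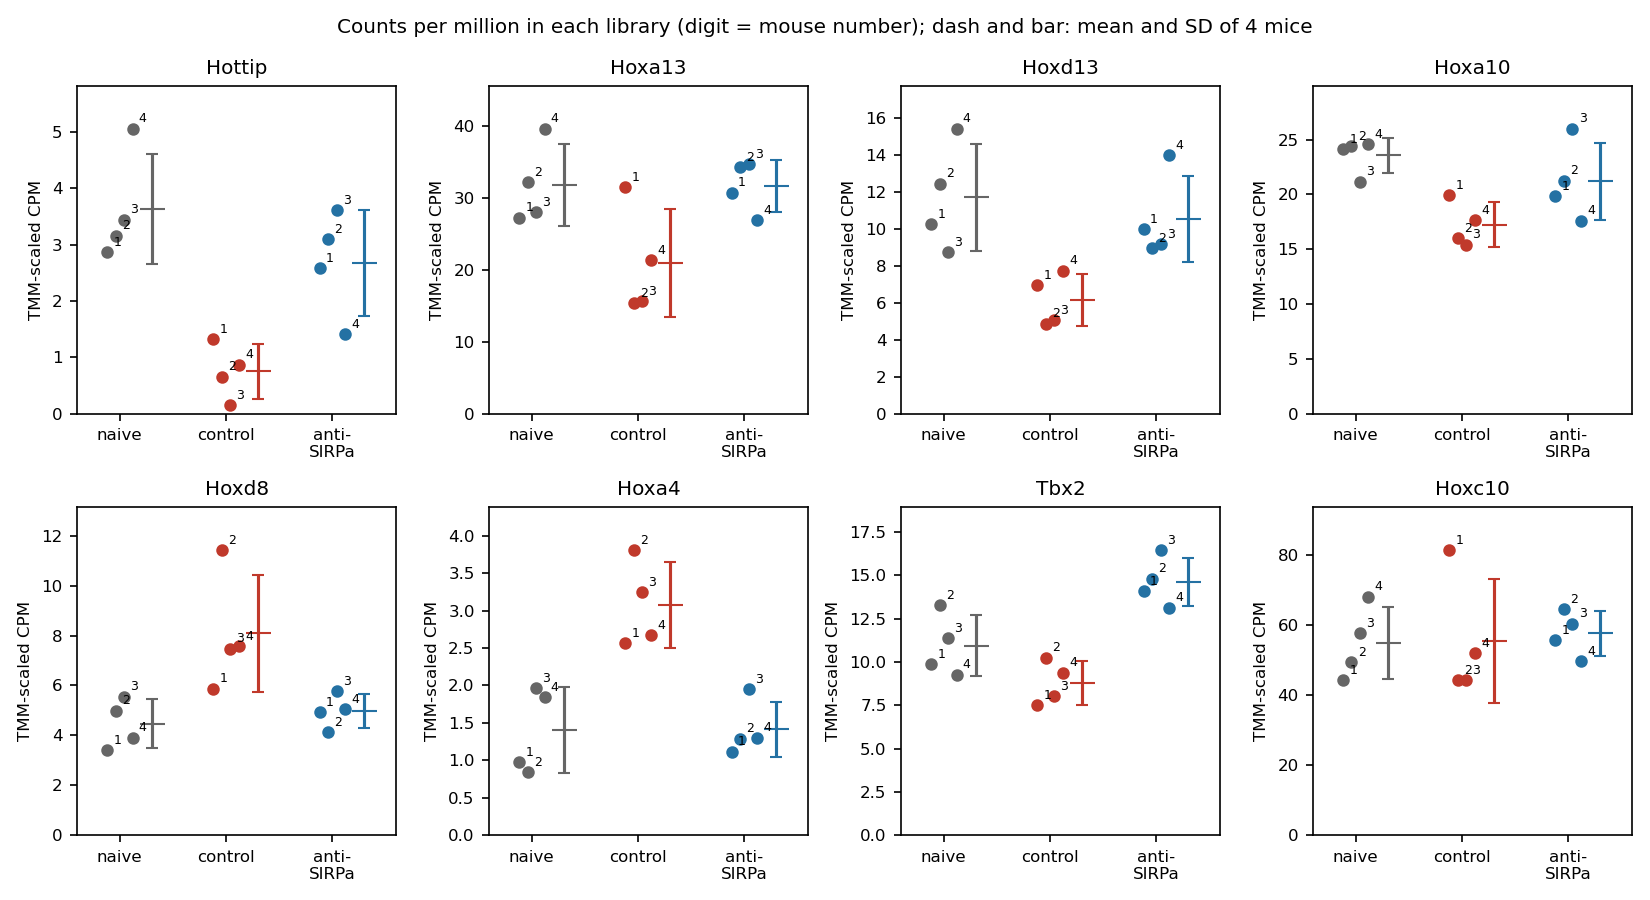
TMM-scaled CPM of 8 members in each library, numbered by mouse, with the mean and SD of each group of 4 as a dash and bar. Hottip and Hoxd13 lie lower in every control-antibody arthritis library than in any naive one, Hoxd8 and Hoxa4 higher, and Hoxc10 overlaps between all groups.

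Hoxc10, the member with the highest level, did not pass in any comparison, at 44.2, 49.4, 57.6 and 68.1 CPM in naive 1 to 4, 81.3, 44.1, 44.1 and 51.8 CPM in control 1 to 4, and 55.6, 64.5, 60.4 and 49.7 CPM in anti-SIRPa 1 to 4. Control 1 was above all other libraries and the rest were mixed. The 95% interval of control against naive was -0.40 to 0.43 and that of anti-SIRPa against control -0.36 to 0.47. Hotair was low throughout, at 0.45 to 2.94 CPM, with differences of -0.31 ± 0.523 and 0.29 ± 0.521 (edgeR adjusted p = 0.742 and 0.774).

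RNA levels of cell type markers differed between the same groups. Summed fibroblast markers were at 3869 to 7621 CPM in naive mice and at 5695, 29767, 18806 and 19586 CPM in control 1 to 4, with Col1a1, Col1a2 and Lum of the 8 markers called higher. The collagens Col1a1 and Col1a2 made up most of this sum. The other markers did not pass, with Dcn at 662 to 912 CPM in naive and 518 to 778 CPM in control mice and Pdgfra at 206 to 242 and 191 to 267 CPM. Leukocyte markers were at 317 to 360 CPM in naive mice and at 345, 673, 669 and 620 CPM in control 1 to 4 (3 of 7 tested higher), and muscle markers had 2 of 8 lower. Of joint lining and cartilage markers 1 was higher and 2 were lower, and of osteoblast markers 1 was higher. Marrow precursor and endothelial markers had 1 lower each, of 3 and 5 tested, although the median differences of these lists were 0.11 and 0.28. In anti-SIRPa mice fibroblast markers were at 6824 to 9714 CPM and leukocyte markers at 436 to 517 CPM. The non-coding RNA Gm26917 took 1.95% ± 0.323 of counts in naive, 5.64% ± 2.39 in control and 1.92% ± 0.398 in anti-SIRPa mice (SD, n = 4). Control 1 lay near the naive libraries in the fibroblast, leukocyte and muscle sums, as it did for Hoxa13. The part of cell makeup and of Gm26917 in the Hox differences was not tested. Without control 1 the arthritis comparison called 3 members higher (Hoxa4, Hoxb7 and Hoxd8) and 4 lower (Hottip, Hoxa10, Hoxa13 and Hoxd13), while 27.2% of all genes were called in that fit. Without naive 4 it called 0 by edgeR. DESeq2 on all libraries called 2 members higher and 4 lower, against 17.4% of all genes.

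Anti-SIRPa against control antibody was the second comparison, which asks what the agonist changed in arthritic joints. It shares the control libraries with the first, so that a library unusual in that group moves both. Of 35 members tested, 1 was higher (Tbx2) and 0 were lower by edgeR, against 1.59% and 1.7% of all genes (3.29% in either direction). DESeq2 called 3 members higher (Hottip, Hoxd13 and Tbx2) and 1 lower (Hoxa4), against 12.1% of all genes. An unadjusted p under 0.05 was found for 10 of the 35, against 24.4% of all genes. The median difference was 0.07 over the members and -0.03 over all genes. Groups did not overlap for 3 members that were higher (Tbx2, Hoxd13 and Hottip) and 2 that were lower (Hoxa4 and Hoxd8), against 5.18% and 4.82% of all genes.

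Markers of several cell types differed in the same comparison. Anti-SIRPa mice had Kit and Cd34 of 3 tested marrow precursor markers and Cilp and Chad of 7 tested joint lining and cartilage markers higher. Also higher was 1 marker each of 4 other lists: Hbb-bs of 4 erythroid, Tek of 5 endothelial, Sox10 of 5 Schwann cell and Phex of 6 osteoblast markers tested. The median difference was -0.27 over the 5 endothelial markers and 0.48 over the 6 osteoblast markers. Summed osteoblast markers were lower, however, at 230 ± 101 CPM in control and 134 ± 24.0 CPM in anti-SIRPa mice (SD, n = 4). Cilp was at 360 to 413 CPM in naive, 215 to 238 in control and 297 to 399 in anti-SIRPa mice. Cd34, Chad and Tek were likewise low in control mice and overlapped between naive and anti-SIRPa mice. Hbb-bs and Sox10 overlapped the naive range in part. Kit and Phex lay above every naive library, Kit at 5.52 to 7.45, 4.22 to 8.67 and 10.4 to 27.0 CPM in the same order. The part of these markers in the results that follow was not tested.

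Tbx2, a transcriptional repressor that limits the cell cycle inhibitors of growing tissue and patterns the posterior digits, was at 7.53, 10.2, 8.01 and 9.39 CPM in control 1 to 4 and at 14.1, 14.8, 16.5 and 13.1 CPM in anti-SIRPa 1 to 4. All anti-SIRPa libraries were above all control libraries. Tbx2 rose by 0.74 ± 0.161 (95% interval 0.39 to 1.08, edgeR adjusted p = 0.0338), from 8.79 ± 1.25 to 14.6 ± 1.40 CPM. Naive mice, at 9.86, 13.3, 11.4 and 9.27 CPM, overlapped both groups, and control against naive gave -0.32 ± 0.161 (edgeR adjusted p = 0.212). The call was lost without naive 1 or 3 (edgeR adjusted p = 0.0515 and 0.0501), without control 2, 3 or 4 (0.0648, 0.106 and 0.0731), without anti-SIRPa 1, 2 or 3 (0.0987, 0.1002 and 0.0775), in a fit of the 8 libraries alone (0.101), with the replicate number as a block (0.0653), without naive 4 and anti-SIRPa 2 (0.106) and without control 2 and 4 (0.177). The difference stayed between 0.68 and 0.94 throughout. The neighbouring Tbx4, whose start lies 53871 bp from that of Tbx2, differed by 0.12 ± 0.169 (edgeR adjusted p = 0.711).

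Hottip was at 2.59, 3.09, 3.61 and 1.42 CPM in anti-SIRPa 1 to 4, above every control library, although anti-SIRPa 4 exceeded control 1 (1.32 CPM) only narrowly. The difference from control was 1.82 ± 0.483 (95% interval 0.78 to 2.86, edgeR adjusted p = 0.0546). It passed with DESeq2 (adjusted p = 0.00422), with no filter (0.0173), without control 1 (0.00569) and without anti-SIRPa 4 (0.0443). Over all 23 alternatives (edgeR, DESeq2 or limma-voom) the adjusted p of Hottip reached 0.289. Hoxd13, at 9.99, 8.95, 9.17 and 13.98 CPM in anti-SIRPa 1 to 4, was above the control range of 4.86 to 7.73 CPM and differed by 0.77 ± 0.229 (edgeR adjusted p = 0.0703; 0.0248 without control 1 and 0.0231 with DESeq2). Hoxa13, at 26.9 to 34.7 CPM, overlapped control 1 and differed by 0.59 ± 0.210 (edgeR adjusted p = 0.114; 0.00228 without control 1). Hoxd8, at 4.12 to 5.78 CPM, lay below all control libraries and differed by -0.70 ± 0.237 (edgeR adjusted p = 0.1004; 0.0240 without control 1). Over the same alternatives the adjusted p reached 0.282 for Hoxd13, 0.481 for Hoxa13 and 0.516 for Hoxd8. The Hoxd8 difference shrank to as little as -0.40. Paralog group 13 held 20.7% ± 1.05 of the summed Hox level per kilobase in anti-SIRPa mice, above the highest control library. Its summed level there was 18.0 ± 1.17 CPM per kilobase. Without control 1, 5 members were called higher (Hottip, Hoxa13, Hoxa5, Hoxd13 and Tbx2) and 4 lower (Hoxa4, Hoxb4, Hoxd8 and Pitx1), while 23% of all genes were called in that fit.

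**Figure D5:**
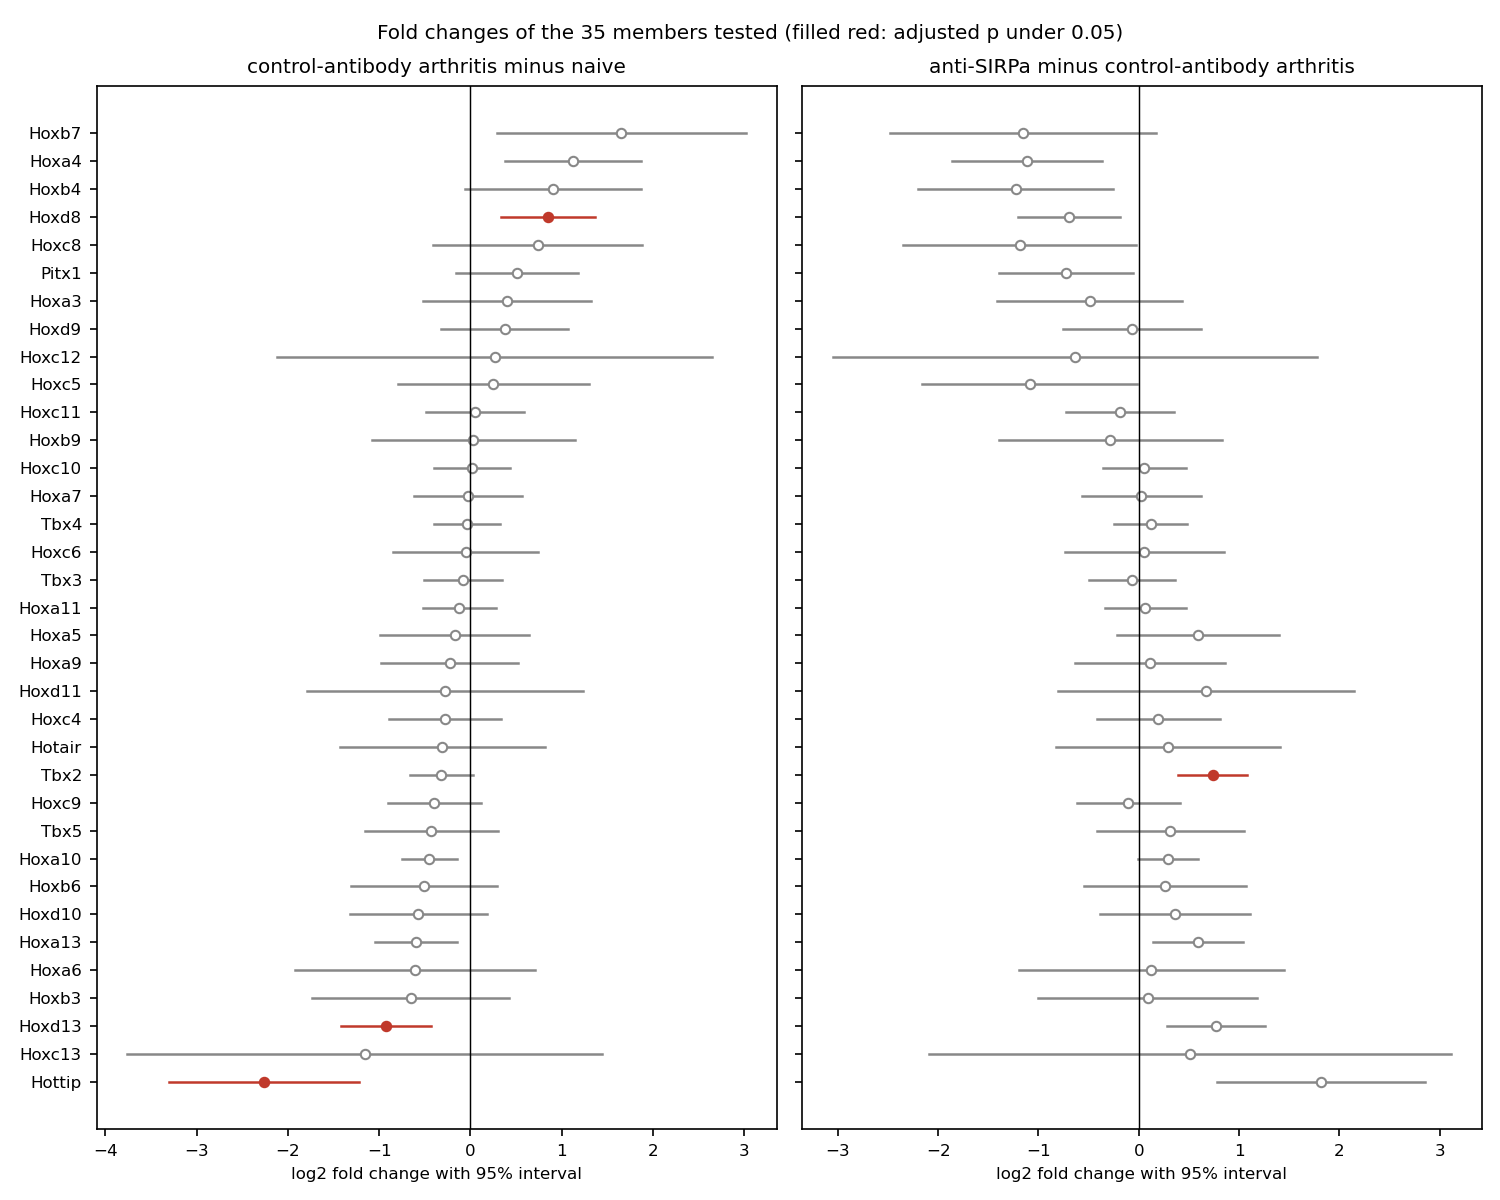
Log2 fold change with its 95% interval for the 35 members tested, control-antibody arthritis minus naive on the left and anti-SIRPa minus control-antibody arthritis on the right, in the order of the left panel. Filled points passed an edgeR adjusted p of 0.05: Hottip, Hoxd13 and Hoxd8 on the left and Tbx2 on the right. Both panels contain the same 4 control libraries.

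Anti-SIRPa against naive, the third comparison, asks what remained different in treated joints. No member passed by edgeR, and none did by DESeq2 or limma-voom, beside 0% of all genes by edgeR and 0.122% by DESeq2. At an unadjusted p under 0.05 (4.05% of all genes) there was 1 member, Tbx2, which was 0.42 ± 0.159 higher in anti-SIRPa mice (95% interval 0.08 to 0.76), with overlapping groups. Groups did not overlap for 1 member, Hoxc8, which was lower, against 4.89% of all genes (3.04% higher and 1.85% lower). For Hottip the difference was -0.44 with a 95% interval of -1.38 to 0.50, for Hoxd13 -0.15 (-0.63 to 0.33), for Hoxa13 -0.01 (-0.45 to 0.44) and for Hoxd8 0.15 (-0.36 to 0.66). The differences of all 35 members lay between -0.83 and 0.50.

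Other limb patterning genes were taken from a list of 58, of which 48 were tested. In arthritis against naive 2 were higher and 4 lower, with a median difference of -0.17, beside 5.87% and 4.45% of all genes and a median of 0.03. Msx1, a homeobox target of BMP signalling that keeps limb mesenchyme undifferentiated, was at 24.3, 23.7, 22.1 and 20.9 CPM in naive and 10.6, 7.49, 9.59 and 14.4 CPM in control 1 to 4, and fell by 1.11 ± 0.198 (edgeR adjusted p = 0.00964). All control libraries were below all naive ones. Bmp4, a BMP ligand, fell by 0.81 ± 0.151 (edgeR adjusted p = 0.0103), and both calls held under 22 of 23 alternatives, being lost without control 2 and 4 (edgeR adjusted p = 0.0686 for Msx1 and 0.113 for Bmp4). Tbx15, a T-box gene of skeletal and skin patterning, fell by 0.96 ± 0.226 (edgeR adjusted p = 0.0214), losing the call without naive 2 or 4 or control 2, 3 or 4 (0.0506, 0.0669, 0.0605, 0.0740 and 0.0604), in a fit of the 2 groups alone (0.0609), without naive 4 and anti-SIRPa 2 (0.0919) and without control 2 and 4 (0.218). Aldh1a2, which makes retinoic acid, rose by 1.75 ± 0.379 (edgeR adjusted p = 0.0187), losing it without naive 1 or 4 or control 2 or 3 (0.0553, 0.0568, 0.0555 and 0.0603), with no filter (0.0503), in a fit of the 2 groups alone (0.0570), without naive 4 and anti-SIRPa 2 (0.0796) and without control 2 and 4 (0.191). The calls of Bmp2 (-0.50 ± 0.141, edgeR adjusted p = 0.0413) and of Gli3 (0.63 ± 0.188, edgeR adjusted p = 0.0485), a mediator of hedgehog signalling, held under 9 and 4 of 23 alternatives. Bmp2 lost its call without any 1 library other than control 1, anti-SIRPa 3 and anti-SIRPa 4, with no filter (0.0560), in a fit of the 2 groups alone (0.0832), with the replicate block (0.0574), without naive 4 and anti-SIRPa 2 (0.0853) and without control 2 and 4 (0.274). Gli3 kept its call with upper quartile factors, DESeq2, the filter at 1 CPM and without control 1, and the edgeR adjusted p was 0.179 without naive 4 and anti-SIRPa 2 and 0.314 without control 2 and 4.

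Against control antibody, anti-SIRPa mice had 2 of the 48 higher and 0 lower by edgeR, with a median of 0.13, beside 3.29% of all genes called. DESeq2 called 4 higher and 2 lower, beside 12.1% of all genes, and 12 had an unadjusted p under 0.05, beside 24.4% of all genes. Msx1 rose by 0.92 ± 0.198 to 25.5, 14.8, 19.6 and 20.2 CPM in anti-SIRPa 1 to 4 (edgeR adjusted p = 0.0338), and Bmp4 rose by 0.67 ± 0.151 (edgeR adjusted p = 0.0368). No anti-SIRPa library of either gene overlapped the control range. Both calls held under 10 of 23 alternatives, with edgeR adjusted p up to 0.177 for Msx1 and 0.236 for Bmp4, both without control 2 and 4, and were lost without any 1 of naive 1 to 3, control 2 to 4 or anti-SIRPa 1 to 3 (0.0501 to 0.109). For Msx1 and Bmp4 the values were 0.104 and 0.104 in a fit of the 2 groups alone, 0.0632 and 0.0789 with the replicate block, and 0.0879 and 0.106 without naive 4 and anti-SIRPa 2. In anti-SIRPa against naive 0 of the 48 passed by edgeR or DESeq2, and 3 had an unadjusted p under 0.05, beside 4.05% of all genes.

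Partners and regulators of Hox genes are read against the 10.3% of all genes called in arthritis against naive and the 3.29% in anti-SIRPa against control. Of the cofactors of the Pbx, Meis and Pknox families, which bind DNA with Hox proteins, 8 of 9 were tested and 0 passed by edgeR in any comparison, with median differences of 0.05, -0.01 and 0.05. At an unadjusted p under 0.05 there was 1, Pbx2 in arthritis against naive, and DESeq2 called 1 higher there. Of 28 Polycomb and trithorax genes, which silence Hox clusters and keep them active, all were tested and 1 passed in arthritis against naive, with 0 by edgeR in the other comparisons (1 and 0 by DESeq2). At an unadjusted p under 0.05 there were 7 of the 28 in anti-SIRPa against control, beside 24.4% of all genes, and 0 against naive. Phf19, a Polycomb accessory protein, was at 0.55, 1.26, 0.70 and 1.00 CPM in naive and 2.48, 6.57, 4.31 and 4.12 CPM in control 1 to 4, and rose by 2.301 ± 0.448 in arthritis (edgeR adjusted p = 0.0115). The groups did not overlap, and the call held under 22 of 23 alternatives, failing without control 2 and 4 (edgeR adjusted p = 0.136). Of 15 other non-coding RNAs of the Hox clusters, 14 were in the table, 5 had no counts and 3 were tested (Hoxa11os, Hotairm1 and Hoxb3os), of which 0 passed by edgeR, DESeq2 or limma-voom and 0 had an unadjusted p under 0.05. Hoxa11os overlaps 35% of the exon length of Hoxa11 and Hoxb3os 52.9% of that of Hoxb3, both antisense, and without a stated strand setting their reads cannot be told apart.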

How the data were processed

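Per the labels' protocols, joint RNA was extracted with an RNeasy kit, and libraries were made with a TruSeq kit for stranded total RNA. The values the authors deposited are raw, unnormalized read counts for each gene, and GRCm38 is the genome build in the submitters' processing notes. The sources used here do not give the aligner, the counting program or its strand setting. The series table and the 12 sample files were identical in their values, and 52489 of the 52636 identifiers were found in GENCODE M21, which gave symbols, positions and exon lengths. Detection floors cover counting error only, whereas intervals of fold changes include the spread between mice.

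Tests used edgeR 4.0.16 (R 4.3.3). The filter on low counts, filterByExpr with the groups, kept 16674 genes, among them 35 members. Libraries were scaled by TMM, and a robust quasi-likelihood model with 1 coefficient per group was fitted to all 12 libraries (biological coefficient of variation 0.334). P values were adjusted by Benjamini-Hochberg over all genes tested, with a threshold of 0.05. The SE of a log2 fold change is its size divided by the square root of the F statistic, and the 95% interval uses the total degrees of freedom. The fits were tested on simulated counts. Members and lists were chosen with earlier results of these data known. Fold changes are given for members called in any comparison, Hottip, Hotair, Tbx2 to Tbx5, Pitx1 and the genes of paralog group 13. They are also given for the highest member per kilobase of each cluster. The rule allowed up to 4 genes per list, but all 6 limb patterning genes called in arthritis against naive are given. Hoxa10 and Hoxa4 were added after their values were seen. Of the genes of paralog group 13, Hoxb13 had too few counts for a fold change.

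Alternatives were RLE and upper quartile factors, no filter, at least 1 CPM in 4 libraries, DESeq2 1.42.0, limma-voom (limma 3.58.1), a dispersion without the robust option, fits to 2 groups alone, a block for the replicate number, each library left out in turn, and leaving out naive 4 with anti-SIRPa 2 or control 2 with control 4. One of the 46 members is left out of the named results and is not reported here by itself.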

Additional observations from a re-analysis of the deposited data

Results flagged for a closer look

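Each of 62 sets of 4 libraries was checked for a library far from its group, and 2 were flagged, fewer than the 1 in 20 that chance gives. Hoxb7 was lower in naive 4, at 0.537 CPM, than in the other naive libraries, at 0.791, 0.843 and 0.844 CPM. Hoxb13 was at 0.0644 CPM in anti-SIRPa 2, from 1 count, and at 0 in the other three anti-SIRPa libraries, so this flag rests on a single read.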

How the results depend on the processing

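Depth and 4 animals per group limit these results: control 2 had 6893969 counts, 11 members could not be tested, and intervals of low genes such as Hoxc13 span several log2 units. In arthritis against naive, DESeq2 called 2 members higher and 4 lower (2905 genes in all), limma-voom 1 higher (Hoxa4 in place of Hoxd8) and 1 lower, RLE factors 3 lower, and the filter removed gave 0 higher. A fit of the 2 groups alone gave 0 higher and 1 lower among 435 genes. With the replicate number as a block, the counts were 0 higher among 735 genes. Without naive 4 and anti-SIRPa 2, 0 members were higher and 0 lower (166 genes), and without control 2 and 4 likewise 0 and 0 (1 gene). Leaving out 1 library gave 0 to 3 members higher, 0 to 4 lower and 412 to 4694 genes.

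In anti-SIRPa against control antibody, DESeq2 called 3 higher and 1 lower (1892 genes), the filter removed gave 2 higher, and limma-voom 345 genes. No member was higher (0) and 0 genes passed in a fit of the 2 groups alone, without naive 4 and anti-SIRPa 2, or without control 2 and 4. With the replicate block 0 members were higher and 78 genes passed. Leaving out 1 library gave 0 to 5 members higher, 0 to 4 lower and 0 to 3976 genes. In anti-SIRPa against naive, 4 genes passed with no filter and 20 with DESeq2, and 0 under every other alternative, with 0 members throughout.

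Under these alternatives the values of named members kept their direction and their side of the threshold in 605 cases, lost a call in 39 and gained one in 12. Another 34 changed sign, all of differences that had not passed in their comparison, and the cause was not tested. In arthritis against naive these were Tbx3 at 0.0147 without naive 4 and anti-SIRPa 2 and 0.10 without control 2 and 4, Tbx4 at 0.0096 without naive 4 and anti-SIRPa 2, Hoxc13 at 0.0236 with limma-voom, Hoxb7 at -0.12 without control 2 and 4, and Hoxc10 at -0.0110 with RLE, -0.0107 with DESeq2, -0.0060 with limma-voom, -0.0071 with the replicate block and -0.0325 with no filter. In anti-SIRPa against control they were Tbx3 at 0.0025 without naive 4 and anti-SIRPa 2, Hoxc13 at -0.73 with limma-voom, and Hoxb7 at 0.62 and Hoxc10 at -0.10 without control 2 and 4. Against naive, Hoxd13 was at 0.10 without naive 4 and anti-SIRPa 2. With 1 library left out, the first comparison ranged from -0.34 to 0.0191 for Tbx3, -0.19 to 0.0366 for Tbx4 and -0.24 to 0.12 for Hoxc10, the second from -0.20 to 0.19 for Tbx3, -0.21 to 0.58 for Hotair, -1.01 to 0.92 for Hoxc13 and -0.0379 to 0.31 for Hoxc10, and the third from -0.32 to 0.0376 for Hoxd13. Alternatives that ended a member's call are given beside it. Deviations of same-numbered mice had correlations from -0.80 to 0.21. With 4 mice per group these cannot decide whether the replicate numbers pair the mice.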
